A study of Oryza sativa with 39 samples.

Results

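The genes described here are those read in every leaf library of the Geng/Japonica (GJ) rice lines and in practically none of the Xian/Indica (XI) lines. An identifier was taken as a member when its FPKM (read fragments scaled to transcript length and to a read total of the library) was at least 1 in each of the 18 GJ libraries and at most 0.3 in each of the 21 XI libraries. This gave 425 members of 109715 identifiers in the files, of which 44421 were above 0 in at least 1 library. The fair denominator is the 10800 identifiers with an FPKM of at least 1 in all 18 GJ libraries, and 3.94% of these were members. Since the members were chosen by their FPKM in the GJ and the XI libraries, the gap between both groups of lines is described below and was not tested. The rule did not compare the 6 GJ lines with each other, and how the members varied among them was tested. Its minimum of 1 in every GJ library limits how far a member could fall in any GJ line. The same limit holds for the 10800 identifiers of the denominator.

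The GJ lines were XS11, a conventional variety without a transgene, and 5 lines derived from it. KMD1 and KMD2 are independent homozygous genetically engineered (GE) events that carry the same synthetic *cry1Ab* gene for an insecticidal protein of Bacillus thuringiensis (Bt), driven by the maize *ubiquitin* promoter. CJ03, JH1 and T202 carry no transgene and were bred by crossing XS11 with other varieties. The XI lines were MH63, which carries no transgene, the GE lines T1C-19 (*cry1C*, maize *ubiquitin* promoter) and HH1 (a fused *cry1Ab/Ac* gene, rice *actin1* promoter), both derived from MH63, and XIY63, XXY63, SY63 and JY63, conventional lines with MH63 as a parent. Each line was sampled 3 times at the tillering stage, 5 weeks after transplanting, and each replicate was a pool of a leaf section from 5 plants. KMD1 and KMD2 thus stand for 1 transformation event each, and the GJ lines are not independent of each other, because XS11 is the origin or a parent of all others.

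Asian cultivated rice falls into the XI and GJ subspecies, which differ in the sequence of most genes and in the presence of many. RNA-seq reads are placed on a reference genome, here IRGSP-1.0, which was assembled from a GJ variety. An FPKM near 0 in an XI line can therefore stand for a gene that is missing from its genome, for a sequence too different for its reads to be placed, or for a gene that is not transcribed, and these cannot be told apart from the values. In bulk leaf, fewer cells of a type and less RNA per cell cannot be told apart either. The identifiers come in 4 classes. Reference loci have names such as OS05G0439200, in which the digits before the G are the chromosome and those after it a number that runs along the chromosome. Predicted genes carry only a running number and are named by it here, Ensembl Plants identifiers an accession-like name (EPlOSAG00000013630), and a few other non-coding identifiers complete the set. None of the members was paired with a gene name or function in the files or in the gene table used here, so no roles are given.

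The reads on genes numbered 3989869 to 8318598 in a library, computed from the whole-number steps of the FPKM values, and 1 read on a gene of 1 kb was worth an FPKM of 0.1101 to 0.251. By these computed reads, an XI value at the threshold of 0.3 is no more than a few reads for a gene of that length. The paper reports far more clean reads per library, most of them mapped, and the mapped ones mostly in exons. The reason for this gap was not tested. Read numbers given below, limits on them included, are the computed ones and may be too low. Of the loci generally known to mark leaf mesophyll, OS12G0274700 (Rubisco small subunit) had an FPKM of 0 to 1.09, OS09G0346500 (a light-harvesting protein) 0 to 1.39 and OS01G0600900 (a light-harvesting protein) 0 to 0.126, and OS11G0707000 (Rubisco activase) was listed at 0 in all 39 libraries. All 4 defining leaf markers were thus at or near 0 in every line. The grain loci OS10G0400200 (glutelin) and OS06G0133000 (Waxy) reached 3.00 and 0.836. A value of 0 in these files is hence written as listed at 0 and not as absence of a transcript, and no fold change against an XI line is given. The part of this in the membership was not tested.

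There were 175 reference loci among the members, beside 236 predicted genes and 14 Ensembl Plants identifiers, and no other non-coding identifier was a member. Related to the identifiers of the same class read at an FPKM of at least 1 in all GJ libraries, these were 2.51% of 6977 reference loci, 6.70% of 3524 predicted genes and, of the Ensembl Plants identifiers, 4.79% of 292. Predicted genes were thus the larger part of the members, 55.5%, although reference loci were the larger part of all identifiers read in every GJ library. The lengths computed from the steps of the FPKM ranged from 35 to 9810 bases with a median of 1434, against 1562 for all identifiers read in every GJ library. The median length was 1113 bases for member loci, 1591 for predicted genes and 78.5 for the Ensembl Plants identifiers, and over all identifiers of these classes read in every GJ library it was 1382, 2274.5 and 74.

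The levels of the members spanned a wide range. The median FPKM over the 18 GJ libraries was at least 100 for 13 members, 10 to 100 for 163, 5 to 10 for 121 and below 5 for 128. The median over all members was 7.77, against 12.5 for the 10800 identifiers read in every GJ library. Among reference loci the members' median was 9.64 and that of all loci 20.1, whereas for predicted genes the values were 6.61 and 6.53, and for Ensembl Plants identifiers 18.6 and 19.6. The distance between members and their class was thus largest for reference loci. Only 3.06% of the members had a median of at least 100, against 14.4% of all identifiers read in every GJ library.

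In the XI libraries, 206 members were listed at 0 in all 21 libraries and 219 were above 0 in at least 1. For the shortest members, such as the Ensembl Plants identifiers, any read exceeds the limit of 0.3, so the rule left only 0. Over all 21 XI libraries 974 reads lay on members, of 119455488 reads on genes, whereas 1219932 of 100008281 did so over the 18 GJ libraries. Members took 1.14% to 1.35% of the reads in each GJ library and at most 0.00144% in any XI library. A member had a median of 1249 reads over the GJ libraries, from 57 to 59231, and a median of 1 read over the XI libraries, with 45 at most. The members with few reads are the less certain ones, and 24 had fewer than 5 reads in some GJ library, while 353 had at least 10 in every one. Per XI line, the number of members above 0 was lowest in HH1 with 44 and highest in JY63 with 100, and was 56 in XXY63, 59 in XIY63, 74 in MH63, 85 in T1C-19 and 88 in SY63. These numbers were not matched for depth. HH1 had the fewest reads on genes, 12562385, against 18209145 in JY63 and 22561745 in MH63.

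**Figure D1:**
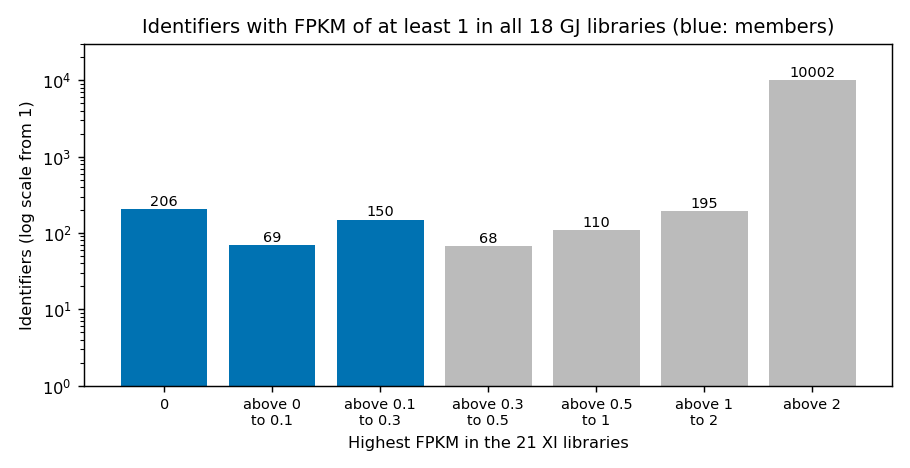
Number of identifiers (log axis from 1) by their highest FPKM in the 21 XI libraries, for the 10800 identifiers with an FPKM of at least 1 in all 18 GJ libraries. Blue bars are the members, 206 of which are listed at 0 in all XI libraries, and the bars on both sides of the threshold of 0.3 hold 150 and 68 identifiers.

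The threshold in the XI libraries did not lie in a gap. With limits of 0, 0.1, 0.3 and 0.5 there were 206, 275, 425 and 493 members. By their highest XI value, 69 members lay above 0 and up to 0.1 and 150 above 0.1 and up to 0.3, whereas 68 identifiers just missed with a value above 0.3 and up to 0.5, 110 had 0.5 to 1, 195 had 1 to 2 and 10002 had more than 2. The members just inside were OS02G0147500, predicted gene 38333 and predicted gene 17901, each with a highest XI value of 0.297, and just outside were OS06G0188700 with 0.308, predicted gene 42901 with 0.311 and OS09G0372100 with 0.313. OS09G0372100 had at least 64.9 in every GJ library, and predicted gene 38333 at least 20.3, so that neither was near the limit on the GJ side. On that side, OS01G0622500, predicted gene 44439 and predicted gene 33267 just passed with a lowest GJ value of 1.02, and OS02G0433900 with 0.985, OS10G0511300 with 0.984 and predicted gene 25915 with 0.979 were left out.

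The highest member was OS05G0439200, a locus on chromosome 5, with a lowest FPKM of 132, a median of 244 and a highest of 342 over the 18 GJ libraries, and it was listed at 0 in all 21 XI libraries. OS10G0489650 on chromosome 10 had 106, 240 and 377 in the GJ libraries and was above 0 in only 1 XI library, with 0.224. OS05G0546300 on chromosome 5 had 105, 169 and 293, and up to 0.203 in 4 XI libraries. In all 3 loci the GJ libraries stood above 100 and the XI libraries below 0.3. OS03G0695425 (91.0, 140 and 201) and OS03G0743650 (106, 133 and 212) were the highest members on chromosome 3. OS10G0493300 (84.9, 129 and 186) lies on the same chromosome as OS10G0489650.

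OS02G0565150 on chromosome 2 differed from these by its spread, with 13.7 in the lowest, 113 in the median and 239 in the highest GJ library. OS07G0236300 had a median of 111 and a range of 39.8 to 236, and OS11G0549665 a median of 102 and a range of 54.9 to 145. The medians of OS02G0310400, OS12G0148500, OS09G0427300 and OS06G0184800 were 91.5, 91.0, 90.4 and 89.4. OS05G0420000 followed with 72.1 and OS05G0390932 with 69.2. Of these 15 highest loci, 4 were on chromosome 5. OS05G0439200, OS02G0565150, OS07G0236300 and OS12G0148500 were listed at 0 in every XI library, and each of the other 11 had 1 to 10 reads over all XI libraries together.

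**Figure D2:**
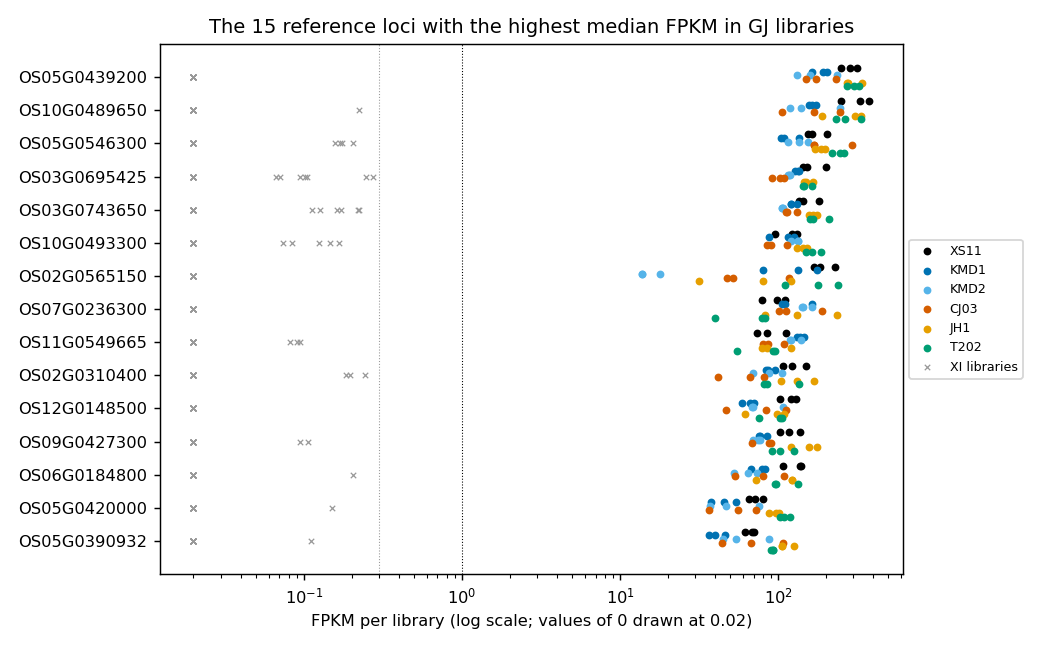
FPKM per library (log axis, values of 0 drawn at 0.02) of the 15 member loci with the highest median in GJ libraries, with GJ libraries as coloured points by line and XI libraries as grey crosses. The dotted lines mark the limits of 0.3 and 1, and OS02G0565150 has the widest GJ spread of the 15, with the KMD2 libraries lowest at 13.7 to 17.95.

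Of the predicted genes, predicted gene 33276 was highest, with a median FPKM of 168 and a range of 80.6 to 277, and it was listed at 0 in all XI libraries. It is short, 220 bases, so that any read in an XI library would have put it above the limit of 0.3. Predicted gene 19616 had a median of 159 (99.1 to 250) and predicted gene 1153 a median of 135 (34.8 to 224). Predicted gene 1153 gave the most reads of the 3, from 875 to 6459 per GJ library against 15 over all XI libraries. The highest Ensembl Plants identifiers were EPlOSAG00000013630 with a median of 112 (60.9 to 211), EPlOSAG00000016851 with 62.0 (35.4 to 153) and EPlOSAG00000018740 with 54.1 (4.88 to 100.3). They are only 47, 35 and 71 bases long, so that these high values rest on 17 to 46, 7 to 30 and 2 to 37 reads per GJ library. All 14 Ensembl Plants identifiers were listed at 0 in every XI library, which the rule itself forces. They are 35 to 229 bases long, and any read on so short an identifier gives a value above the limit of 0.3.

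Members were found on all 12 chromosomes. Chromosomes 2 and 5 had the most member loci, 23 each, followed by chromosome 8 with 19 and chromosome 4 with 17. Related to the loci read in every GJ library, the share was highest on chromosome 11 with 4.50% (14 of 311), chromosome 10 with 4.29% (14 of 326), chromosome 8 with 4.12% (19 of 461) and chromosome 5 with 3.75% (23 of 614). It was lowest on chromosome 3 with 1.30% (13 of 997) and chromosome 1 with 1.35% (13 of 963), the chromosomes with the most loci read. Between these were chromosome 6 with 1.77% (10 of 566), chromosome 7 with 2.22% (12 of 540), chromosome 12 with 2.40% (8 of 333), chromosome 9 with 2.47% (9 of 365), chromosome 2 with 2.59% (23 of 888) and chromosome 4 with 2.77% (17 of 613).

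**Figure D3:**
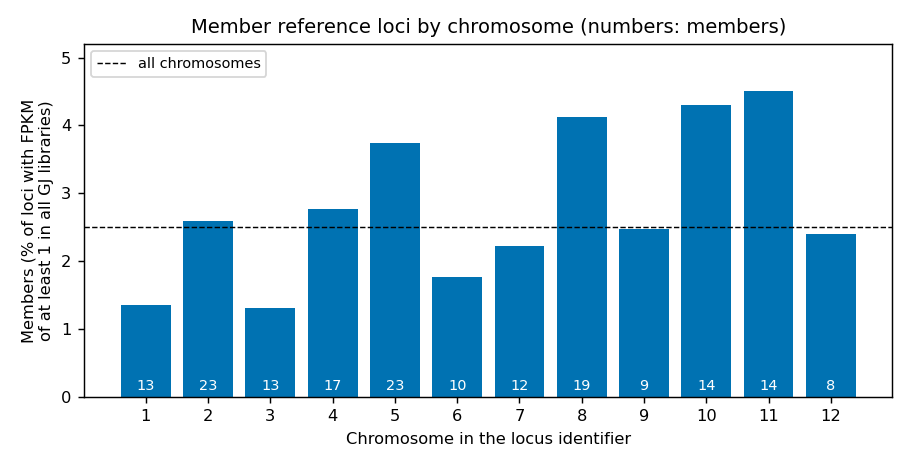
Member reference loci as a percentage of the loci with an FPKM of at least 1 in all 18 GJ libraries, by the chromosome in the identifier, with the number of members in each bar. The dashed line is the share over all chromosomes, 2.51%, and chromosomes 11, 10, 8 and 5 stand at 3.75% or more whereas chromosomes 1 and 3 stand at 1.35% or less.

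Member loci were often next to each other. For 25 of the 175 member loci, or 14.3%, the next locus along the chromosome that was read in every GJ library was also a member, whereas 2.51% of all loci read in every GJ library were members. Among predicted genes the following one by running number was a member for 31 of 236, or 13.1%, against 6.70% of all, though what orders the running numbers was not given in the sources used here. Taking loci no more than 2000 apart in locus number as neighbours, 59 of the 175 member loci fell into 26 groups of at least 2, and 19 of them into 6 runs of at least 3 (members of the runs of 3 are named after their values were seen). The limit of 2000 decides these numbers, since with 1000 there was 1 run with 3 members and with 5000 there were 14 runs with 46 members.

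In each of the 6 runs, every locus that was read at an FPKM of at least 1 in all GJ libraries was a member, so that no other locus read in all GJ lines lay within a run. Loci not read at that level in all GJ libraries did pass 0.3 in XI libraries within some runs, 1 on chromosome 2 with up to 3.83, 1 on chromosome 5 with up to 4.10 and 2 on chromosome 4 with up to 0.827. The only run of 4 lay on chromosome 11, from OS11G0547800 to OS11G0549680, and held OS11G0547800 (median 54.1), OS11G0549665 (102), OS11G0549670 (7.46) and OS11G0549680 (10.4). It covers 18 listed loci, of which 4 of the 14 others were listed at 0 in all GJ libraries and 3 of the 18 passed 0.3 in some XI library, with 1.43 as the highest value. The next loci read in every GJ library were OS11G0546900 before it, with medians of 369 in GJ and 257 in XI libraries, and OS11G0550100 after it, with 4.55 and 4.02. Both flanks were thus read in both subspecies. Flanks were picked as the next loci read in every GJ library, and other listed loci can lie between them and the run. Of all identifiers read in every GJ library, 92.6% had an FPKM above 2 in some XI library.

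The second run on chromosome 11 joined OS11G0202600 (median 8.16), OS11G0204100 (3.38) and OS11G0204800 (15.5), and no locus in it passed 0.3 in an XI library. Its flanks OS11G0199600 and OS11G0206200 had medians of 66.3 and 10.1 in GJ and 64.5 and 9.28 in XI libraries. The run on chromosome 10 held OS10G0365800 (10.03), OS10G0366400 (23.4) and OS10G0368100 (19.7), which are 3 of only 4 listed loci there. The flanking locus OS10G0364900 had 32.4 in GJ and 11.6 in XI libraries, and OS10G0369000 had 40.9 and 36.3. On chromosome 2, OS02G0221400 (24.2), OS02G0223200 (3.75) and OS02G0223300 (6.49) were listed at 0 in every XI library, between OS02G0220500 (91.0 and 57.9) and OS02G0223700 (466 and 561).

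On chromosome 4, OS04G0170166 (median 4.90), OS04G0170500 (12.1) and OS04G0171800 (35.8) formed a run, flanked by OS04G0169500 (14.4 in GJ and 20.4 in XI libraries) and OS04G0174800 (92.5 and 110). On chromosome 5, OS05G0546300 (169), OS05G0547600 (11.9) and OS05G0547700 (24.1) did. This was the only run with a flank that was itself nearly unread in XI lines. The next locus, OS05G0547800, had a median of 37.3 in GJ and of 0 in XI libraries but passed 0.3 in at least 1 of these, so that it was no member. The levels within a run thus differed widely.

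Among the 6 GJ lines the ratios below were slightly wider for members than for all identifiers read in every GJ library. The members had lower levels (median FPKM 7.77 against 12.5), and the part of this in the ratios was not tested. The ratio of the highest to the lowest line mean had a median of 2.13 over the members and of 1.94 over all 10800 identifiers. It was below 2 for 179 members, 42.1% against 53.4%, and above 4 for 43 members, 10.1% against 7.72%. The steadiest members were predicted gene 2338 with a ratio of 1.23, predicted gene 7382, OS11G0202600 and predicted gene 25916 with 1.25 each and OS02G0221400 with 1.27. The line means of OS02G0221400 ran from 21.2 ± 1.87 (SD, n = 3) in XS11 to 26.9 ± 1.91 in JH1, a difference not past the test across lines (adjusted p = 0.317, limma). The widest ratios were those of OS11G0547800 (14.5), predicted gene 21293 (14.1), predicted gene 42926 (13.7), OS02G0565150 (12.9) and OS07G0226200 (10.4). For predicted gene 42926 replicate 3 of XS11 had 105 and the other XS11 libraries 8.88 and 9.15, and without it the ratio was 10.3, with KMD1 as the highest line.

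In the moderated F test of limma across the 6 GJ lines, with Benjamini-Hochberg adjustment over all identifiers tested, 246 of the 425 members differed at an adjusted p below 0.05, or 57.9%. Of all identifiers read in every GJ library 54.2% differed, close to the share of the members, and of all 25580 tested, which include many read in few libraries, 43.0%. By class, 105 of 175 reference loci differed, as did 135 of 236 predicted genes and 6 of 14 Ensembl Plants identifiers. Of the 15 highest loci 13 did, and OS07G0236300 (adjusted p = 0.0671) and OS12G0148500 (adjusted p = 0.214) did not pass. Among the 19 members of runs 12 differed. The counts by class, for the highest loci and for the runs have no background of the same class or level beside them.

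Within a run, some members varied more among lines than others, and whether they differed from each other in this was not tested. In the run of 4 on chromosome 11, OS11G0547800 had the widest ratio of all members and OS11G0549680 did not pass the test (adjusted p = 0.289), with line means from 8.5 ± 2.5 in T202 to 12.3 ± 1.7 in KMD2 (SD, n = 3). In the run on chromosome 10, OS10G0368100 had a mean of 5.63 ± 1.47 in KMD1 and of 42.7 ± 6.73 in JH1 (adjusted p = 5.35e-05), and OS10G0366400 had the same lowest and highest lines with 20.7 ± 0.9 and 26.8 ± 2.6 (adjusted p = 0.167). All 3 members of the run on chromosome 2 were highest in JH1. In the run on chromosome 4, OS04G0171800 (adjusted p = 0.00906) and OS04G0170500 (adjusted p = 0.00792) differed between lines and were both lowest in XS11. Both were upregulated DEGs in KMD2/XS11, by 1.47 and 1.73 on the log2 scale, and in CJ03/XS11, by 1.66 and 1.17, the last of which was lost without replicate 2 of CJ03 or replicate 1 or 3 of XS11. OS04G0170166, the third member, had means of 4.0 ± 0.8 to 5.9 ± 1.5 (adjusted p = 0.496).

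By the deposited FPKM, 105 members had their highest line mean in XS11, 103 in JH1, 84 in T202, 57 in KMD1, 45 in KMD2 and 31 in CJ03. For JH1 this is 24.2% of the members against 14.1% of all identifiers read in every GJ library, and for KMD2 10.6% against 16.7%. XS11, with 24.7% against 23.0%, was close to its background. These counts depended on the scaling. With FPKM over plain read totals they were 62 in XS11, 79 in JH1, 80 in T202, 77 in KMD1, 88 in KMD2 and 39 in CJ03. JH1 was then at 18.6% against 9.76%, KMD2 at 20.7% against 28.5%, T202 at 18.8% against 24.1% and KMD1 at 18.1% against 14.8%. CJ03 was at 9.18% against 10.8% and XS11 at 14.6% against 12.1%, so that each line kept its side of the background. Members took 1.31% of the reads on genes in KMD2, 1.25% in KMD1, 1.24% in JH1, 1.19% in XS11, 1.17% in T202 and 1.15% in CJ03.

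Each derived line was then compared with XS11, and both GE events with each other, from 3 + 3 libraries with limma on log2(FPKM + 1). Identifiers with a Benjamini-Hochberg adjusted p below 0.05 that at least doubled or at least halved are called differentially expressed genes (DEGs), and fold changes below are on this log2 scale, which understates the change of low values. All 425 members entered every test. The 5 comparisons with XS11 share its 3 libraries and are not independent of each other. The number of member DEGs was lowest for JH1/XS11 with 11 and highest for KMD2/XS11 with 58. In all, 314 members were a DEG in none of the 5 comparisons, 65 in 1, 30 in 2, 11 in 3, 4 in 4 and 1 in all 5. The 111 called at least once are 26.1% of the members, against 22.1% of the identifiers read in every GJ library. Of the latter, 14.0% were called in 1 comparison, 6.11% in 2, 1.74% in 3, 0.231% in 4 and 0.0463% in 5. The shares of the members were 15.3%, 7.06%, 2.59%, 0.941% and 0.235%.

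**Figure D4:**
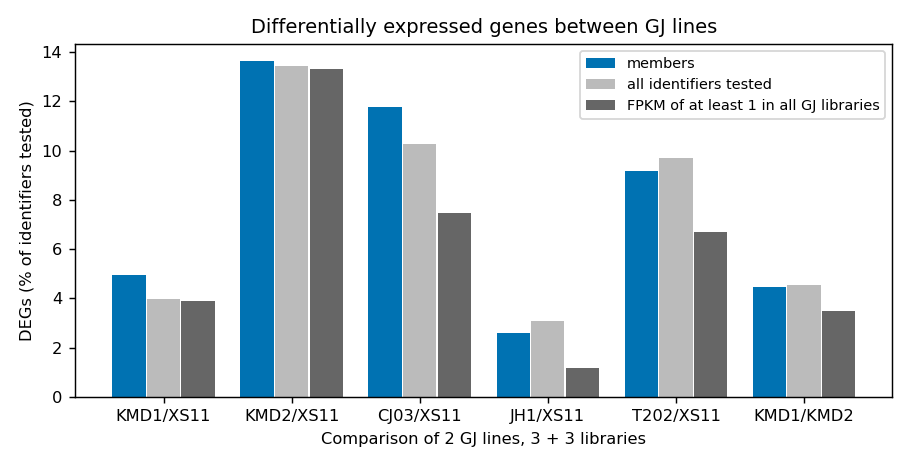
Percentage of identifiers that were DEGs in each comparison of GJ lines (3 + 3 libraries), for the 425 members, for all identifiers tested and for those with an FPKM of at least 1 in all GJ libraries. KMD2/XS11 is highest in all 3 groups (13.6%, 13.4% and 13.3%) and JH1/XS11 lowest (2.59%, 3.08% and 1.19%).

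Between KMD1 and XS11, 21 members were DEGs, or 4.94%, against a background of 3.96% of all identifiers tested and 3.91% of those read in every GJ library. Of these, 3 were upregulated and 18 downregulated, whereas 2.27% of all identifiers were up- and 1.69% downregulated, and 1.74% and 2.17% of those read in every GJ library. OS10G0552700 had 4.03, 9.12 and 7.56 in KMD1 and 68.0, 32.0 and 38.7 in XS11. All KMD1 libraries were below all XS11 libraries, with a log2 fold change of -2.56 ± 0.35 (SE, adjusted p = 0.0150). Predicted gene 45284 fell by 1.76 on the log2 scale (adjusted p = 0.00915), from 12.3 ± 2.73 in XS11 to 2.90 ± 0.56 in KMD1 (SD, n = 3). OS04G0171800 rose, from 15.98, 17.1 and 8.17 in XS11 to 34.5, 46.5 and 32.8 in KMD1, a log2 fold change of 1.44 (adjusted p = 0.0331). Predicted gene 38659 rose by 1.57 (adjusted p = 0.0306). The number of calls here was unsteady. It was 2 without replicate 3 of KMD1 or without replicate 3 of XS11, 3 without replicate 2 of KMD1 or replicate 1 of XS11, 5 without replicate 1 of KMD1 and 41 without replicate 2 of XS11, and the calls of OS04G0171800 (adjusted p = 0.0618 to 0.125, limma) and predicted gene 38659 (0.0521 to 0.119) were lost in every such fit but the one without replicate 2 of XS11. OS10G0552700 lost its call without replicate 3 of KMD1 (adjusted p = 0.0653) or of XS11 (adjusted p = 0.0532), and predicted gene 45284 without replicate 3 of KMD1 (adjusted p = 0.0590).

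Between KMD2 and XS11, 58 members were DEGs, or 13.6%, at a background of 13.4% of all identifiers and 13.3% of those read in every GJ library. There were 17 upregulated and 41 downregulated members, with 6.61% and 6.81% of all identifiers up- and downregulated and 5.47% and 7.84% of those read in every GJ library. OS02G0565150 was the member with the largest fall. It had 13.7, 13.7 and 17.95 in KMD2 and 184, 168 and 231 in XS11, and all KMD2 libraries were thus far below XS11, at a log2 fold change of -3.60 ± 0.19 (SE, adjusted p = 4.22e-05). Predicted gene 21293 fell from 21.8, 14.7 and 17.6 in XS11 to 1.24, 1.21 and 1.39 in KMD2 (log2 fold change -3.05, adjusted p = 9.68e-05), where it rested on as few as 7 reads in a library. Predicted gene 41919 rose from 2.88 ± 0.37 to 16.9 ± 3.62 (SD, n = 3) with a log2 fold change of 2.19 (adjusted p = 0.000512, limma). Predicted gene 38659 rose by 1.86 (adjusted p = 0.0128). In the run on chromosome 5, OS05G0547600 fell by 2.30 on the log2 scale while OS05G0547700 had means of 25.5 in KMD2 and 24.9 in XS11. The number of DEGs was 33 without replicate 2 of KMD2 and 37 without replicate 3 of XS11.

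Between both GE events, 19 members were DEGs in KMD1/KMD2, or 4.47%, against 4.54% of all identifiers tested and 3.48% of those read in every GJ library. There were 9 members higher and 10 lower in KMD1, with 2.83% and 1.70% of all identifiers and 2.19% and 1.30% of those read in every GJ library. OS02G0565150 had 175, 80.8 and 134 in KMD1, so that every KMD1 library was above the 13.7 to 17.95 of KMD2, with a log2 fold change of 2.96 ± 0.27 (SE, adjusted p = 0.00139). Predicted gene 42926 was also higher in KMD1, with 25.0, 15.3 and 52.0 against 3.26, 3.95 and 2.18 (log2 fold change 2.80, adjusted p = 0.00700). Predicted gene 41919 had 2.72, 3.17 and 2.14 in KMD1 and 14.2, 15.6 and 21.03 in KMD2 (log2 fold change -2.28, adjusted p = 0.000850). OS10G0368100 had 4.06, 6.97 and 5.85 in KMD1 and 18.1, 20.02 and 32.1 in KMD2 (log2 fold change -1.86, adjusted p = 0.00622). These 4 were named because they had the largest differences among DEGs without overlap between the events. Without replicate 1 of KMD1 the number of DEGs was 12.

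Of the conventional lines, CJ03 had 50 member DEGs against XS11, or 11.8%, with 10.3% of all identifiers and 7.48% of those read in every GJ library as background. There were 14 upregulated and 36 downregulated members, against 4.98% and 5.31% of all identifiers and 2.98% and 4.50% of those read in every GJ library. OS11G0547800 had 8.13, 7.40 and 9.75 in CJ03 and 60.6, 85.0 and 86.8 in XS11, with no overlap and a log2 fold change of -3.05 ± 0.20 (SE, adjusted p = 8.02e-05). OS07G0297200 fell from 30.8, 35.9 and 41.8 in XS11 to 2.31, 3.88 and 5.61 in CJ03 (log2 fold change -2.96, adjusted p = 0.000516). OS01G0564300 rose from 3.64, 3.75 and 10.2 to 30.9, 20.4 and 21.1 (log2 fold change 1.98, adjusted p = 0.0143, and 0.0541 without replicate 1 of XS11). OS02G0278400 rose from 1.71, 1.46 and 1.73 to 8.17, 9.36 and 9.63 (log2 fold change 1.93, adjusted p = 0.000249). The number of DEGs was 19 without replicate 2 of CJ03, 21 without replicate 3 and 29 without replicate 1 of XS11.

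In JH1/XS11 the member DEGs were fewest, 11 or 2.59%, against 3.08% of all identifiers tested and 1.19% of those read in every GJ library. There were 7 upregulated and 4 downregulated members, against 1.45% and 1.63% of all identifiers and 0.481% and 0.704% of those read in every GJ library. OS07G0226200 had 243, 226 and 178 in JH1 and 44.8, 34.2 and 49.97 in XS11, with a log2 fold change of 2.30 ± 0.21 (SE, adjusted p = 0.000625). It was also high in T202, with 203, 185 and 158, and at most 77.2 in every library of the other 4 lines. OS10G0368100 rose from 12.3, 8.33 and 9.96 in XS11 to 50.2, 37.2 and 40.7 in JH1 (log2 fold change 1.97, adjusted p = 0.00153). Predicted gene 21293 fell by 2.29 on the log2 scale (adjusted p = 0.00105). Predicted gene 1153, the predicted gene with the most reads of those named, fell from 217, 216 and 224 to 46.1, 93.8 and 48.3 (log2 fold change -1.86, adjusted p = 0.00741). Without replicate 3 of JH1 the number of DEGs was 7.

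T202 had 39 member DEGs against XS11, or 9.18%, with 9.71% of all identifiers and 6.70% of those read in every GJ library as background. There were 14 upregulated and 25 downregulated members, against 5.47% and 4.24% of all identifiers and 3.68% and 3.03% of those read in every GJ library. OS02G0163300 was the member with the largest rise against XS11, with 34.7, 35.5 and 30.8 in T202 and 3.67, 3.66 and 3.14 in XS11 (log2 fold change 2.95 ± 0.16 SE, adjusted p = 2.46e-05). In the libraries of the other 4 lines it lay between 2.34 and 15.4. OS04G0171800 had 39.7, 124 and 101 in T202, all above XS11, with a log2 fold change of 2.51 (adjusted p = 0.0103). Predicted gene 9854 fell from 50.7, 43.2 and 54.5 to 6.93, 7.90 and 8.19 (log2 fold change -2.54, adjusted p = 7.07e-05). OS11G0547800 had 11.5, 15.5 and 30.9 in T202 and fell by 2.05 on the log2 scale (adjusted p = 0.00818). Without replicate 2 of T202 the number of DEGs was 23.

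**Figure D5:**
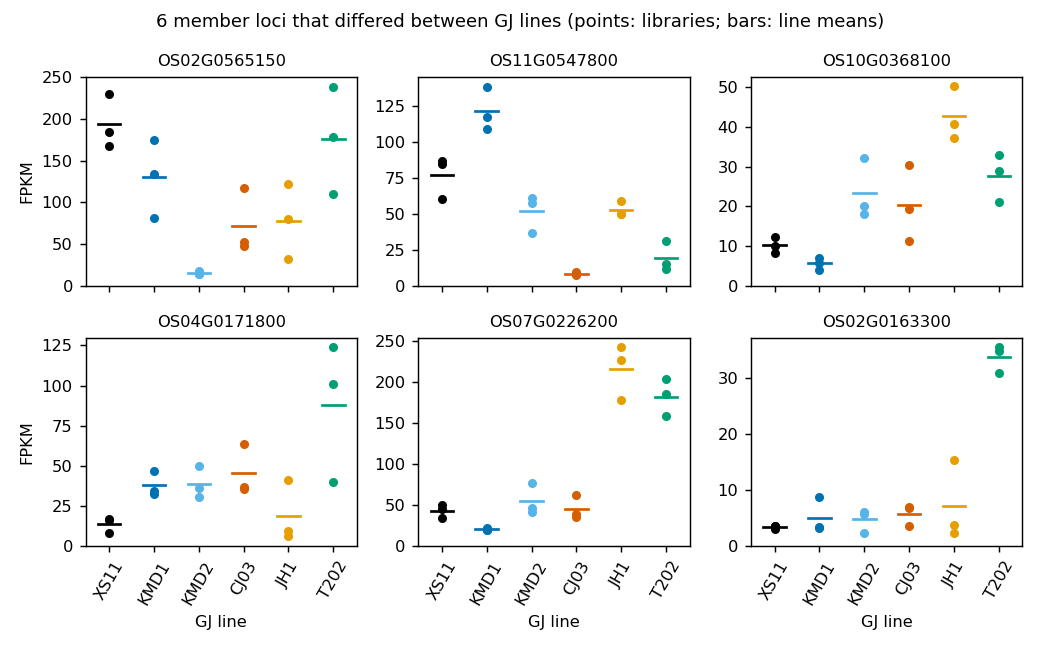
FPKM of 6 member loci in the 18 GJ libraries by line, with points for libraries and bars for line means (n = 3). OS02G0565150 is lowest in KMD2 (13.7 to 17.95), OS11G0547800 in CJ03 (7.40 to 9.75), and OS02G0163300 is highest in T202 (30.8 to 35.5).

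Counted over comparisons, predicted gene 21293 was a DEG in all 5 with XS11 and always lower in the derived line, with log2 fold changes of -1.26 in KMD1, -3.05 in KMD2, -2.34 in CJ03, -2.29 in JH1 and -1.22 in T202. XS11, the shared control, was the highest line of this gene. The members with 4 such calls, chosen after their values were seen, were OS04G0171800, higher in KMD1, KMD2, CJ03 and T202 by 1.44 to 2.51, and predicted gene 41262, OS08G0104400 and predicted gene 26279, lower in these same lines by 1.48 to 2.30, 1.33 to 1.75 and 1.08 to 1.23 on the log2 scale. The calls in KMD1/XS11 were again the least steady. For predicted gene 21293 and predicted gene 26279 they held only in the fit without replicate 2 of XS11, and they were lost without replicate 1 or 3 of XS11 for predicted gene 41262 and OS08G0104400, as well as without replicate 1 or 2 of KMD1 for the former and replicate 2 or 3 of KMD1 for the latter. On plain totals predicted gene 26279 was no DEG in KMD1, KMD2 and CJ03. In T202/XS11 the call of predicted gene 21293 was lost without replicate 2 or 3 of T202 or replicate 1 or 3 of XS11, and that of predicted gene 26279 without replicate 2 or 3 of T202 or replicate 1 or 2 of XS11. Without replicate 2 of CJ03 the CJ03/XS11 calls of predicted gene 26279 and OS04G0171800 were lost, and without replicate 2 of KMD2 the KMD2/XS11 call of OS04G0171800. Of the 15 highest loci, 2 were a DEG in at least 1 comparison with XS11, although 13 differed in the F test, which asks for no minimum fold change. OS02G0565150 was a DEG in KMD2/XS11 and in CJ03/XS11, where its call was lost without replicate 2 or 3 of CJ03 or replicate 1 or 3 of XS11. OS02G0310400 fell by 1.04 on the log2 scale in CJ03/XS11, and this call held in only 1 of the 6 fits without a library, that without replicate 3 of CJ03.

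More member DEGs were down- than upregulated against XS11 in KMD1, KMD2, CJ03 and T202, but this majority depended on the scaling in KMD1, KMD2 and T202. On the deposited values the median log2 fold change of the members was -0.16, -0.22, -0.21, 0.05 and -0.14 for KMD1, KMD2, CJ03, JH1 and T202, and that of all identifiers tested 0.00, -0.02, 0.00, 0.00 and -0.03. The identifiers read in every GJ library shared part of this offset, with medians of -0.11, -0.13, -0.10, -0.01 and -0.04. When FPKM were recomputed over the plain read totals of the libraries, the median of all identifiers moved to 0.18, 0.23, 0.16, 0.07 and 0.06, and that of the members to 0.05, 0.07, -0.03, 0.12 and -0.02. With plain totals there were 13 up- and 9 downregulated members for KMD1/XS11, 29 and 20 for KMD2/XS11, 20 and 26 for CJ03/XS11, 8 and 4 for JH1/XS11, and 19 and 16 for T202/XS11, so that the majority turned in KMD1, KMD2 and T202. For KMD1/KMD2 they were 9 and 12. In KMD1, KMD2, CJ03, JH1 and T202 against XS11, 59.1%, 59.2%, 43.5%, 66.7% and 54.3% of these member DEGs were upregulated. Of all DEGs on plain totals 84.0%, 74.6%, 63.3%, 48.4% and 64.2% were. On the deposited values the shares were 14.3%, 29.3%, 28%, 63.6% and 35.9% of member DEGs. Those of all DEGs were 57.3%, 49.2%, 48.4%, 47.0% and 56.4%. For DEGs among the identifiers read in every GJ library they were 44.5%, 41.1%, 39.9%, 40.6% and 54.8%. The member share was thus lower than that of all DEGs with both scalings in KMD1, KMD2, CJ03 and T202, and higher in JH1. Against the identifiers read in every GJ library the same held on the deposited values, and plain totals were not compared with these. In JH1 the shares rest on only 11 and 12 member DEGs.

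The reverse set was smaller. With the same limits, 181 of the 10227 identifiers read at an FPKM of at least 1 in all 21 XI libraries were at most 0.3 in all 18 GJ libraries, or 1.77%, against 3.94% in the other direction. The ratio of both shares was largest for reference loci, with 26 of 6617 (0.393%) against 175 of 6977 (2.51%). For predicted genes the numbers were 148 of 3370 (4.39%) and 236 of 3524 (6.70%), and for Ensembl Plants identifiers 7 of 233 (3.00%) and 14 of 292 (4.79%). Reference loci were thus 41.2% of the members, and predicted genes were most of the reverse set. Reads of both subspecies were placed on the same GJ genome, and the number of libraries that had to pass each limit differed, 18 and 21. The part of either in this gap was not tested.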

How the data were processed

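Leaf RNA of 13 rice lines with 3 replicates each was sequenced. According to the methods and the submitters' notes, the authors used HISAT2 2.09 to align clean reads to IRGSP-1.0 and featureCounts 1.5.0-p3 to count them per gene, and deposited FPKM values, 1 column per library. No strand setting is given in the sources used here, so reads of overlapping or antisense genes cannot be told apart, nor those of near-identical copies.

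Since FPKM values of the same gene in different libraries relate as whole numbers, reads and gene lengths were computed from their ratios, all 1036152 values above 0 coming out whole within 0.01 of a read, though they could be off by a common factor. Reads served for the variance trend, for depth and for the plain read totals, which are the reads on genes. The read total behind the deposited FPKM came out as 4669104 in replicate 1 of XS11, against 5445524 reads on genes. In replicate 1 of KMD2 it was 7288459 against 6361379. The deposited values and the plain totals thus scale the lines differently. Lines were tested on log2(FPKM + 1), a pseudocount of 1, with limma 3.58.1 (R 4.3.3), over identifiers that reached an FPKM of 0.5 in no fewer than 3 libraries, with a variance trend over mean log2 reads. The recovery and the test were run on simulated data first. Replicates of a line differed by more than counting noise in every pair, and no pair of replicates held identical values.

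Members, lists and tests were chosen with earlier results of these data known. Named were the 15 highest reference loci and the 3 highest of each other class, the runs of 4 or more, per comparison the 2 largest rises and the 2 largest falls among DEGs without overlap between lines, the 3 identifiers next to each limit, and the 5 steadiest and 5 most variable members. Product classes were also planned but could not be applied, since the gene table used here (RefSeq) matched 0 of the 425 members and 1 of 37830 reference loci. Alternatives were other limits of the rule, other distances between neighbours, a pseudocount of 0.1, no filter, the default variance trend, the replicate number as a block, plain read totals, 1 model over 18 libraries, no minimum fold change and each library left out, and added after the data were seen were voom on the recovered reads, plain totals for the highest line of each member and line ratios without replicate 3 of XS11. Python 3.11.15, numpy 2.4.6, pandas 2.3.3 and matplotlib 3.10.9 were used.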

Additional observations from a re-analysis of the deposited data

Results flagged for a closer look

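KMD1 and KMD2 carry the same construct in the same parent, and 4 members are listed here for the difference of their effects against XS11, which is the comparison KMD1/KMD2 from 3 + 3 libraries (limma). They were chosen as its largest DEGs without overlap, so that their separation follows from the choice. OS02G0565150 differed by a log2 fold change of 2.96, predicted gene 42926 by 2.80, predicted gene 41919 by -2.28 and OS10G0368100 by -1.86. The member DEGs of this comparison, 4.47%, were close to the background of 4.54% of all identifiers. XS11 overlapped KMD1 for OS02G0565150 (168 to 231) and predicted gene 41919 (2.49 to 3.21), had 8.88, 9.15 and 105 for predicted gene 42926, and lay between both events for OS10G0368100 (8.33 to 12.3). Groups of 3 libraries are too small for a test of single libraries that stand apart.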

How the results depend on the processing

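The number of members was 206 with a limit of 0 and 275 with 0.1 in XI libraries, and within 1.5 times of 425 with the other limits, with another scaling and with 1 replicate of every line left out (470 to 509). Members in runs were 3 at a distance of 1000, 46 at 5000 and 3 with a limit of 0 in XI libraries. Without a filter on low values the member DEGs were 5 for KMD1/XS11, 35 for KMD2/XS11 and 30 for CJ03/XS11. Without a minimum fold change they were 49, 115, 77 for these, 70 for T202/XS11 and 37 for KMD1/KMD2. One model over all 18 libraries gave 17 for JH1/XS11, and for KMD1/KMD2 a pseudocount of 0.1 gave 29 and voom 30. The cause of these shifts was not tested. With 1 library left out, which lowers the number of samples, the counts were 2 to 41 for KMD1/XS11, 33 to 73 for KMD2/XS11, 19 to 56 for CJ03/XS11, 7 to 11 for JH1/XS11, 23 to 37 for T202/XS11, 12 to 24 for KMD1/KMD2 and 209 to 262 for the F test. In no comparison did all 3 pairs of libraries with the same replicate number correlate above 0.1 in their deviations (0.0527, 0.149 and 0.216 in KMD1/XS11), so the numbers were not taken as pairs, and with the replicate block the counts were 27, 57, 35, 8, 44 and 17, and 237 for the F test. Of the 24 named DEG values, none changed direction, and 163 of 168 values under alternatives with all libraries and a minimum fold change stayed DEGs, with 5 losses in KMD1/XS11 (OS04G0171800 3, predicted gene 38659 1 and OS10G0552700 1). With 1 library left out, 130 of 144 did. For 22 further calls printed above, 0 of 286 values changed direction, 141 of 154 stayed DEGs with all libraries and 91 of 132 with 1 left out. With few reads, members such as the short Ensembl Plants identifiers limit what the counts can show.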

Other observations

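Identifiers that missed the rule through a single line held further patterns, given here as values chosen after they were seen. T202 alone kept out 54 identifiers and CJ03 alone 42, and of these 28 and 25 were at most 0.3 in all 3 libraries of that line. For XS11 and KMD1 the latter number was 0, for KMD2 2 and for JH1 12. On chromosome 6, 5 such loci of T202 lay between OS06G0579600 and OS06G0582600. Of the 10 listed loci there, 6 were read at an FPKM of at least 1 in all libraries of the other GJ lines, and none of the 6 in T202. OS06G0580100 had 240 to 290 in the other 15 GJ libraries and was listed at 0 in all 3 of T202. OS06G0581701 had 44.3 to 115, and OS06G0582600 55.4 to 733, against 0 and at most 0.160 in T202.

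In CJ03, OS05G0507400 was listed at 0 in all 3 libraries and had 18.9 to 106 in the other GJ libraries, and OS08G0406700 was listed at 0 against 20.9 to 33.7. In JH1, OS12G0145566 had at most 0.12 against 124 to 158 elsewhere, and OS12G0117700 and OS12G0109600 on the same chromosome were listed at 0 against at least 11.1 and 5.82.

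Of the XI lines, JY63 alone kept out 45 identifiers, 13 of them with an FPKM of at least 1 in all of its libraries. OS11G0287000 had 11.5, 16.4 and 18.1 in JY63 and was listed at 0 in all other XI libraries, and OS08G0161401 had 20.4, 20.9 and 18.4. On chromosome 10, OS10G0410900, OS10G0418300 and OS10G0428200 were read in JY63 at 1.71 to 10.6. XIY63 had 9 such identifiers, among them OS05G0382550 with 5.31, 6.54 and 5.97, T1C-19 and SY63 had 5 each, HH1 had 1, and MH63 and XXY63 had 0.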
